A study of Mus musculus with 7 samples.

Results

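The dermis of the ear of Koa mice was compared with that of wild-type (WT) mice, gene by gene. The comparison covers every gene that reached 1 FPKM in either of 2 RNA-seq libraries, and its measure is the Koa minus WT difference of log2(FPKM + 1). FPKM is the number of fragments per kilobase of transcript, scaled by the mapped fragments of the library, so it also allows levels of different genes to be compared. Of 22552 gene symbols in the table, 13691 met this rule, and 13690 were used. The Koa library came from ear dermal cells of heterozygous mice (genotype Wt/Koa) and the WT library from ear dermal cells of Wt/Wt mice. Both carry the strain label CD1/C3H, both are of postnatal day 50, and both were made from the total RNA of flow-sorted cells. The labels give neither the gate of the sort, nor the number of animals in a library, nor the hour at which tissue was taken. The same table holds Koa and WT ear epidermis, WT dorsal epidermis, WT dorsal dermis and WT tail dermis, 1 library each, of which the ear and dorsal libraries are used here for comparison. Since each genotype is represented by 1 library, differences could not be checked against replicates and are given without a test.

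The Koa allele acts dominantly and is an inversion of part of chromosome 15. Its carriers have thick hair on the ears, which in WT mice bear short and sparse hair. The Hoxc cluster lies near one end of the inverted segment. Hox genes encode transcription factors that record position along the body, and skin of the head, the ear included, normally lacks most of them while skin of the trunk has them. Fibroblasts of the dermis form the dermal papilla, the cell cluster at the base of each follicle that sends signals to the hair matrix above it. Matrix cells in turn build the hair shaft and the inner root sheath around it, each with its own set of keratins. The comparison asks what differs in the dermal cells of an ear that bears more hair.

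The 2 libraries had the character of dermis with some keratinocyte transcripts in it. Whether these came from epidermis or from follicle epithelium was not tested. All 20 markers of dermal fibroblasts reached 1 FPKM, with summed levels of 13565 FPKM in Koa against 15401 FPKM in WT. Decorin (Dcn) alone stood at 6274 and 7827 FPKM. The dermal level of 12 basal keratinocyte markers, as a share of the epidermal level in the same genotype, had a median of 12.1% in Koa (9.81% to 43.9%) and 9.10% in WT (4.12% to 31.4%). Of the summed level of these markers the share was 10.4% in Koa and 5.23% in WT. Depth recovered from the steps of low values was 35.3 M fragments (M stands for mega) in Koa ear dermis and 36.2 M in WT ear dermis. Col1a1, a chain of collagen I, was listed at 0 in Koa and at 4362 FPKM in WT, while Col1a2 and Col3a1 were listed at 0 in both. These 3 very abundant transcripts were treated as failed estimates and left out.

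Most genes stood at similar levels in both libraries. Short transcripts give unstable FPKM, and without 202 short RNAs 13488 genes remained, of which 67.3% differed by less than 0.25 on the log2(FPKM + 1) scale. The median difference was -0.0032, and the 5th and 95th percentiles were -0.44 and 0.57. By a size rule of at least 1 on that scale, 181 genes were higher in Koa (1.34%) and 78 were lower (0.578%). These shares over all genes are the background to each count of list members below. With short RNAs included the counts were 234 (1.71%) and 146 (1.07%) of 13690. At the edge of the size rule, Errfi1 stood at 1.00 inside it and Pkp1 at 0.99 outside it. At the edge of the expression filter, Wnt10b, a Wnt ligand, was inside at 1.00 FPKM in Koa against 0.407 FPKM in WT, and Zfp345 was outside at 0.371 and 0.999 FPKM.

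**Figure D1:**
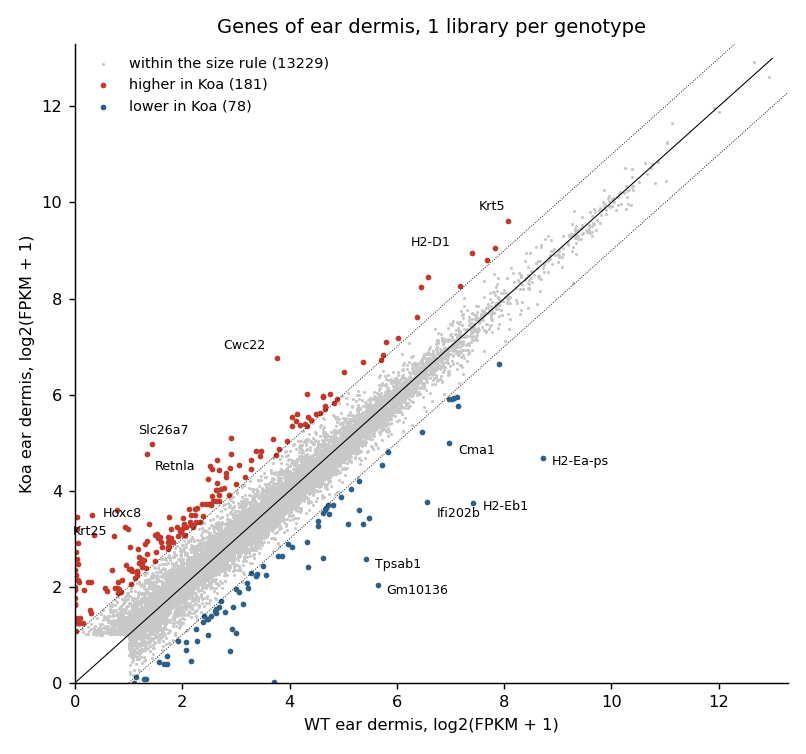
Level of each gene in WT ear dermis (x axis) and Koa ear dermis (y axis), both as log2(FPKM + 1), without short RNAs; each point is 1 gene, the solid line marks equal levels and the dotted lines a difference of 1. The 181 genes higher in Koa are red, with Hoxc8 and Krt25 near the WT floor and Slc26a7 and Retnla above 1 FPKM in WT. The 78 lower genes are blue, with H2-Ea-ps, H2-Eb1 and Gm10136 among the furthest below the line.

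Epidermal genes made up more of the higher genes than of the lower ones. Layer was read from libraries that the comparison does not use, WT dorsal epidermis against WT dorsal dermis, by the same size rule. Of all 13488 genes, 7.10% were higher in dorsal epidermis and 15.3% were lower there. Of the 181 genes higher in Koa ear dermis, 66 (36.5%) were epidermal by this measure, 55 (30.4%) dermal and 60 neither. Of the 78 lower genes, 6 (7.69%) were epidermal, 27 (34.6%) dermal and 45 neither. In bulk samples such as these, fewer cells of a type and less RNA per cell cannot be told apart.

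Some genes of the Hoxc cluster stood close to 0 in WT ear dermis and at measurable levels in Koa ear dermis. Of its 9 genes in the table, 5 reached 1 FPKM, all of them in the Koa library only. A gene that enters through Koa alone has a higher Koa value by construction, so the count and median are description only. Of these 5, 4 were higher by the size rule, against 1.34% of all genes, with a median difference of 1.26. At a pseudocount of 5, or with 5 FPKM required, 1 of them passed, Hoxc8. Its sequence is shown by a start of Hoxc4, the member at the 3' end of the cluster, from RefSeq (build GRCm38.p6, chr15:103034145-103034394, plus strand). This start lies inside the annotated span of the gene (chr15:103018097-103036856). The 250 bases before it are given with each CG dinucleotide in capitals.
Hoxc4: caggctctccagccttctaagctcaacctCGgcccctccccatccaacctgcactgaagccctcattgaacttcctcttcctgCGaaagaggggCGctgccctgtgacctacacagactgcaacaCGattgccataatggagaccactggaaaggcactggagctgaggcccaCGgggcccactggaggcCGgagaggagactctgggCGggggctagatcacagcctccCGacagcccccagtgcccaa
This stretch holds 8 CG dinucleotides and has a GC content of 62%. Over the 10597 genes of the comparison with a promoter in that table, the medians were 15 and 59.6%.

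Hoxc8 (chr15:102990539-102994275) stood at 10.2 FPKM in Koa against 0.241 FPKM in WT, a ratio of 42.3 with an exact 95% interval of 26.5 to 72.4. Such intervals are computed from recovered fragment numbers and cover counting error only, not variation between animals. Hoxc4 stood at 1.55 against 0.0618 FPKM, Hoxc6 at 1.36 against 0.0396 FPKM and Hoxc5 at 1.56 against 0.0109 FPKM. The WT values of the last pair rest on about 1.96 and 1.07 fragments, so their ratios of 34.3 (9.03 to 297) and 143 (26.5 to 4663) are loosely bounded. Hoxc9 was at 1.09 against 0.109 FPKM, a difference of 0.92 that lies just short of the size rule. In ear epidermis Hoxc8 stood at 1.97 FPKM in Koa against 0.171 FPKM in WT. Hoxc6 stood there at 0.590 against 0.0178 FPKM, and Hoxc9 at 0.279 FPKM in Koa while listed at 0 in WT. Hoxc4 (0.397 and 0.445 FPKM) and Hoxc5 (0.570 and 0.656 FPKM) were not higher in Koa epidermis.

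Hoxc10, Hoxc11 and Hoxc12, toward the 5' end of the cluster, were close to 0 in both libraries. Hoxc10 was at 0.0493 FPKM in Koa against 0.0804 FPKM in WT, and Hoxc12 at 0.0440 and 0.172 FPKM. Hoxc11 was listed at 0 in the Koa library, with a WT level of 0.0386 FPKM. Each of these values rests on fewer than 6 fragments, so a difference between genotypes was not detectable at this depth. Hoxc13, a regulator of hair shaft keratins (chr15:102921131-102928814), stood at 0.983 against 0.345 FPKM, with a ratio of 2.85 (1.83 to 4.56). It did not reach 1 FPKM. In the matching epidermis it stood at 10.3 and 6.52 FPKM. With the epidermal share subtracted, as described below, Hoxc13 came to 0 in both dermal libraries.

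WT dorsal dermis gives the level of these genes in trunk skin. Hoxc8 stood there at 29.5 FPKM, Hoxc6 at 18.0 FPKM, Hoxc9 at 7.24 FPKM, Hoxc4 at 5.90 FPKM and Hoxc5 at 2.09 FPKM. Every one of these lay above the Koa ear level. Hoxc10, at 5.8 FPKM in dorsal dermis, was the gene with a trunk level of several FPKM that stayed near the floor in Koa ear dermis. No Hox gene of another cluster passed the size rule, with 3 of 30 at 1 FPKM. Hoxa2, which patterns the outer ear in the embryo, stood at 18.7 and 19.3 FPKM, Hoxd8 at 2.90 and 3.71 FPKM, and Hoxd9 at 0.771 and 1.16 FPKM. The 8 expressed Hox cofactors of the Pbx, Meis and Pknox families ranged from -0.35 to 0.34, none past the rule.

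**Figure D2:**
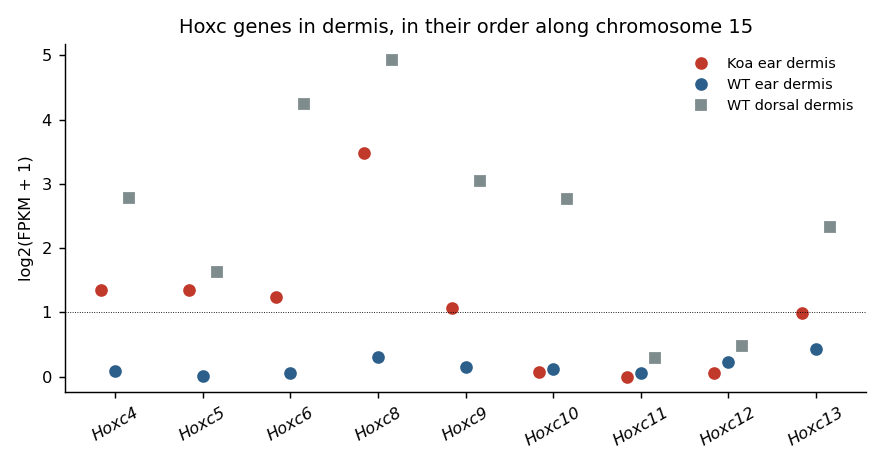
Levels of the 9 Hoxc genes, as log2(FPKM + 1), in Koa ear dermis (red circles), WT ear dermis (blue circles) and WT dorsal dermis (grey squares), 1 library each, ordered along chromosome 15 from the 3' end of the cluster; the dotted line marks 1 FPKM. Koa lies above WT in Hoxc4, Hoxc5, Hoxc6, Hoxc8 and Hoxc9, and both lie near 0 in Hoxc10, Hoxc11 and Hoxc12.

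Chromosome 15 as a whole held 14 genes higher in Koa and 1 lower among 528, or 2.65% and 0.189%, against 1.34% and 0.578% of all genes. The share of higher genes was 2.39% on chromosome 3 and 1.90% on chromosomes 1 and 11. The 14 were 4 Hoxc genes, 8 type II keratins, the keratinocyte surface protein gene Ly6d and the ketone body enzyme gene Oxct1. The lower gene was Syngr1, which encodes a synaptic vesicle protein. Between Trps1, a gene of hair and cartilage development in the middle part of the chromosome (chr15:50654757-50890631), and the Hoxc cluster lay 407 genes. Without the keratins they numbered 395, of which 1 was higher and 1 lower, with a median difference of 0.01. None of the 33 genes within 1 Mb of the cluster passed the rule, and they ranged from -0.45 (Pde1b) to 0.65 (Itgb7) around a median of 0.04. Trps1 itself stood at 8.34 FPKM in Koa against 7.39 FPKM in WT, a ratio of 1.13 (1.07 to 1.19). On chromosome 11, which carries the type I keratins, 21 of 1103 genes were higher and 6 lower. On chromosome 17, which carries the histocompatibility genes, 8 of 669 were higher and 12 lower.

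Many keratins, those of the hair follicle among them, were higher in Koa. Of the type I keratins on chromosome 11, 11 of 14 at 1 FPKM were higher, against 1.34% of all genes. Of the type II keratins on chromosome 15, 8 of 12 were higher. The list of inner root sheath genes had 11 members at 1 FPKM, with a median of 1.65. Of these, 7 were higher and none lower, against 1.34% and 0.578% of all genes. Each of the 7 reached 1 FPKM in Koa only, so a higher Koa value follows from the filter. The inner root sheath is the sleeve that guides the growing hair. Promoters of 3 of its keratins are shown because these genes were higher together and share a short motif. The motif is the GATA sequence AGATAA, searched on both strands in the 250 bases before the start (RefSeq, GRCm38.p6) and printed in capitals. Krt71 is from chr15:101743098-101743347, Krt25 from chr11:99322952-99323201 and Krt73 from chr15:101802361-101802610, all on the minus strand.
Krt71: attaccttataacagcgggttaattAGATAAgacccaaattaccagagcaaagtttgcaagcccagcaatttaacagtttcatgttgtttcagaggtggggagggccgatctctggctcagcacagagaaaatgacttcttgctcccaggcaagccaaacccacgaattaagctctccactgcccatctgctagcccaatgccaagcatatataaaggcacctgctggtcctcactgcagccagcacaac
Krt25: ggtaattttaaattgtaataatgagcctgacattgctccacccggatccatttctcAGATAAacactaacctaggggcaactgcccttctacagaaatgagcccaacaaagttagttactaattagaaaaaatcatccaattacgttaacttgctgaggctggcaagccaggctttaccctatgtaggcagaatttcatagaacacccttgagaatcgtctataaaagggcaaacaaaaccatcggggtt
Krt73: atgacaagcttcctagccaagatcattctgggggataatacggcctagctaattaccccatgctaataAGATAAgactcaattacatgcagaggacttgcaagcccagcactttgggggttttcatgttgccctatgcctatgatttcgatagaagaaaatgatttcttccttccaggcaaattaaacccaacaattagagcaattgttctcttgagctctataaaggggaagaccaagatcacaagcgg
The match begins 225 bases before the start in Krt71, 194 in Krt25 and 182 in Krt73. Of the 7 inner root sheath genes past the size rule, 5 held a match (Krt25, Krt27, Krt71, Krt73 and Tchh). A match was found in 10.3% of all 27025 promoters and in 5.87% of those of the genes compared. Among the higher genes 23 of 135 promoters (17.04%) held a match, and among the lower genes 8 of 55 (14.5%). Median GC content was 52.8% for the higher genes, 52.4% for the lower genes and 59.6% for the genes compared. For the 7 inner root sheath genes it was 42.4%. Whether these shares follow GC content was not tested. A match is a description of the letters and not a binding site.

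Krt25 (chr11:99315516-99322951) stood at 9.94 FPKM in Koa against 0.0190 FPKM in WT, the latter about 1.22 fragments, a ratio of 524 (107 to 11703). Krt71 stood at 8.25 against 0.0279 FPKM, with a ratio of 296 (81.4 to 2458), and Krt73 at 5.59 against 0.0141 FPKM. These type I and type II chains pair into the filaments of the sheath, and both kinds were close to 0 in WT ear dermis. Krt28 stood at 3.28 against 0.235 FPKM, Krt27 at 4.08 against 0.617 FPKM and Krt75, a keratin of the companion layer, at 1.36 against 0.0538 FPKM. Tchh, which encodes trichohyalin, the granule protein of the sheath, stood at 8.16 against 0.987 FPKM, with a ratio of 8.26 (7.13 to 9.62). The crosslinking enzyme gene Tgm3 differed by 0.99, from 1.46 FPKM in WT to 3.88 FPKM in Koa. Gata3, a factor required for the sheath, stood at 9.43 and 4.72 FPKM, short of the rule.

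Of 15 hair shaft keratins in the table, 5 reached 1 FPKM, all in Koa only, so a higher Koa value follows from the filter. By the size rule 4 of these 5 were higher, against 1.34% of all genes, with a median of 1.76. Krt35 stood at 6.52 against 0.0362 FPKM, with a ratio of 180 (59.9 to 924), and Krt85 at 4.54 against 0.0444 FPKM. Krt83 stood at 1.13 against 0.0169 FPKM, and Krt31 at 2.39 FPKM in Koa while listed at 0 in WT. Krt32, a keratin of the hair cuticle, was the member that did not differ by the rule, at 1.03 and 0.823 FPKM. Keratin-associated proteins embed these filaments in the shaft. The table lists 51 of their genes, of which 3 reached 1 FPKM, all listed at 0 in WT: Krtap8-1 at 4.12 FPKM, Krtap7-1 at 2.83 FPKM and Krtap11-1 at 2.13 FPKM in Koa. With a WT level of 0, a gene that reaches 1 FPKM in Koa passes the size rule by construction. S100a3, a calcium-binding protein of the hair cuticle, stood at 7.30 against 0.649 FPKM, with a ratio of 11.3 (8.79 to 14.6).

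Ear epidermis, measured in separate libraries, gives the level of these genes in the layer that holds follicle epithelium. Krt25 stood there at 33.3 FPKM in Koa against 1.88 FPKM in WT, Krt71 at 31.9 and 0.930 FPKM, and Krt35 at 28.2 and 1.91 FPKM. The 11 inner root sheath genes stood in Koa dermis at a median of 26.9% of Koa epidermis and in WT dermis at 8.41% of WT epidermis. Of their summed level the shares were closer, 15.3% and 11.6%. The dermal sums of 116 FPKM in Koa and 68.7 FPKM in WT include Cux1, at 16.2 and 21.2 FPKM. They also include Krt79, which is listed with the sebaceous gland genes too. The summed shares thus do not describe the sheath keratins alone. For the 5 hair shaft keratins the medians were 23.1% and 5.56%, and the shares of the summed level 23.7% and 7.35%. WT dorsal dermis, from skin with a full coat, held Krt25 at 5.40 FPKM, Krt71 at 4.19 FPKM and Krt35 at 6.33 FPKM.

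**Figure D3:**
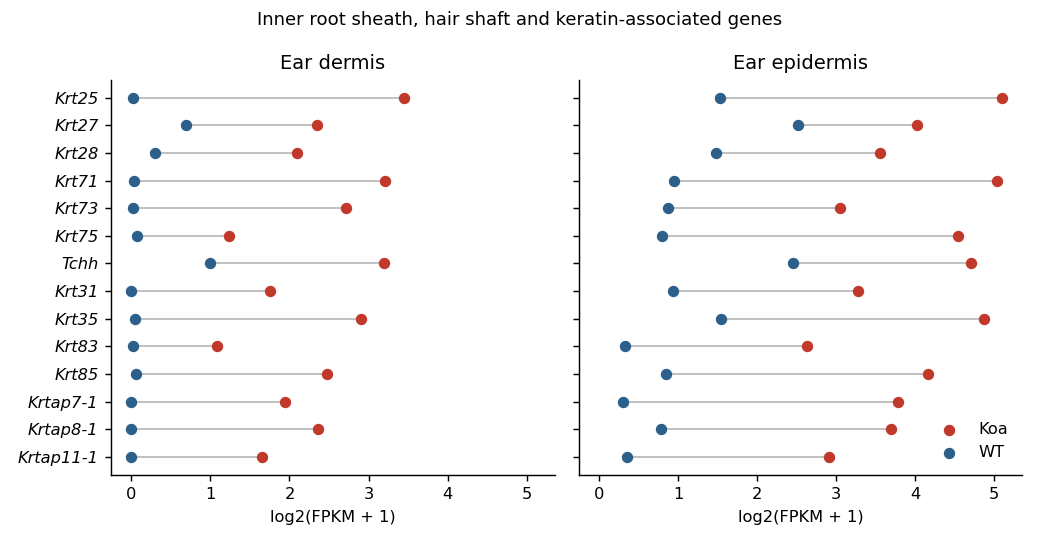
Levels of 14 genes of the inner root sheath, hair shaft and keratin-associated proteins, as log2(FPKM + 1), in Koa (red) and WT (blue) ear dermis on the left and ear epidermis on the right, 1 library each, with a line joining the genotypes. In both layers the Koa value lies to the right of the WT value for each of the 14 genes; Krt25 reads 9.94 against 0.0190 FPKM in dermis and 33.3 against 1.88 FPKM in epidermis.

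Some keratinocyte markers were also higher in Koa. All 12 basal markers lay above 0, with 4 higher by the rule, against 1.34% of all genes, and a median of 0.67. Krt5 stood at 787 against 267 FPKM, Krt14 at 532 against 228 FPKM, and Col17a1, a collagen of the hemidesmosome, at 87.4 against 31.4 FPKM. Of 13 suprabasal markers 6 were higher, with a median of 0.85, among them Krt10 at 346 against 94.7 FPKM and the desmosomal cadherin Dsg1a at 20.6 against 5.39 FPKM. The summed level of the basal list was 1970 FPKM in Koa against 803 FPKM in WT, and that of the suprabasal list 981 and 326 FPKM. With the epidermal profile of the same genotype subtracted at the basal marker shares of 12.1% and 9.10%, 6 of the 7 inner root sheath genes stayed past the rule and Krt75 came to 0 in both libraries. The median of the 11 was then 1.45, and that of the Hoxc genes was 1.29. Before subtraction the 11 sheath genes stood at medians of 26.9% of epidermis in Koa and 8.41% in WT. These lie above the subtracted share in Koa and below it in WT. That most of the 7 stayed past the rule thus follows largely from the shares and is no check. The shares are medians over the basal markers, so by construction the subtraction removes many of those markers, and 6 of the 12 were then still at 1 FPKM. The part of follicle epithelium in the hair genes of the dermal library was not tested.

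Among genes of the dermal papilla, a few signalling and retinoid genes were higher in Koa. All 31 listed members reached 1 FPKM, 5 were higher by the rule and none lower, against 1.34% and 0.578% of all genes, and the median was 0.26. Bmp4, a ligand made by papilla and matrix, stood at 47.7 against 21.5 FPKM, with a ratio of 2.22 (2.08 to 2.36). Inhba, which encodes the activin A chain, stood at 12.7 against 5.39 FPKM. Rspo1, an R-spondin that strengthens Wnt signalling, stood at 43.4 against 20.1 FPKM. Crabp1, a retinoic acid binding protein of papilla fibroblasts, stood at 112 against 52.7 FPKM, and its relative Crabp2 at 9.17 against 4.03 FPKM. Short of the rule, Rspo2 stood at 1.13 against 0.307 FPKM, Lef1 at 5.95 against 2.62 FPKM and Fgf10 at 7.12 against 4.79 FPKM. Other papilla genes lay within the rule, with Corin at 5.35 and 3.63 FPKM, Sox2 at 1.32 and 1.26 FPKM, and Alpl at 1.30 and 1.64 FPKM. Ndp, the Norrin ligand of Fzd4, was the furthest the other way, at 7.84 against 13.96 FPKM.

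Few members of the Wnt and BMP pathways passed the rule, by which 1.34% of all genes were higher and 0.578% lower. Grem1, a BMP antagonist (chr2:113748675-113758648), stood at 8.50 FPKM in Koa against 0.8996 FPKM in WT, a ratio of 9.45 (7.87 to 11.4). The list of BMP antagonists had a median of 0.15, with 1 of 13 past the rule. Grem1 stood at 12.7 FPKM in WT dorsal dermis. Sfrp2, a secreted Wnt inhibitor, was lower in Koa at 59.9 against 132 FPKM, the only member of 12 past the rule. Wnt ligands held none past the rule among 13, with Wnt3 (0.94) and Wnt10a (0.88) furthest. The 16 Wnt response genes had a median of 0.24 and none past the rule. Receptors and targets of BMP and TGF-beta (21 genes, median 0.02), FGF genes (21, 0.04), IGF and EGF genes (18, 0.03), Hedgehog genes (11, 0.06) and Notch genes (16, 0.26) held none either.

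Collagens and other matrix genes differed in a few members only. Of 36 collagen genes 6 were higher and none lower, against 1.34% and 0.578% of all genes, with a median of 0.27. Col5a3, a minor chain of collagen V, stood at 44.99 against 15.5 FPKM, Col6a5 at 4.14 against 1.01 FPKM and Col6a6 at 20.9 against 8.69 FPKM. Col28a1, a collagen found around nerves, stood at 2.86 against 0.757 FPKM. The other members past the rule were the basement membrane chain Col4a5 (5.60 against 1.84 FPKM) and the basal keratinocyte marker Col17a1. In Koa and WT ear epidermis Col17a1 stood at 874 and 599 FPKM. After the epidermal share was subtracted it came to 0 in both dermal libraries. None of 14 small leucine-rich proteoglycans passed, although fibromodulin (Fmod), which steers collagen fibril growth, stood at 321 against 624 FPKM, a difference of -0.96. Tnn, a tenascin, stood at 8.43 against 2.73 FPKM, the only one of 37 elastic and adhesive matrix genes past the rule. Among 31 proteases and inhibitors, Mmp11 (15.3 against 5.57 FPKM) and Adamts4 (4.33 against 1.36 FPKM) were higher. The 19 cartilage genes had a median of 0.05 and none past the rule, with Col2a1 at 27.3 and 15.1 FPKM.

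A few glial and nerve genes were higher in Koa. All 15 Schwann cell genes at 1 FPKM lay above 0, with a median of 0.44. Of these, 3 were higher by the rule, against 1.34% of all genes. Gfap, the intermediate filament of non-myelinating glia (chr11:102887336-102897200), stood at 11.1 FPKM in Koa against 0.720 FPKM in WT, a ratio of 15.4 (11.9 to 20.1). In ear epidermis and in both dorsal libraries Gfap was at most 0.111 FPKM. Ngfr, the low-affinity neurotrophin receptor, stood at 7.16 against 2.30 FPKM. The lineage factor Sox10 differed by 0.35, at 6.50 and 4.89 FPKM. Of 39 axon guidance and neurotrophin genes 3 were higher and none lower, Ngfr again with the neurotrophin-3 receptor Ntrk3 (6.62 against 2.03 FPKM) and the semaphorin Sema3b (14.1 against 6.31 FPKM).

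**Figure D4:**
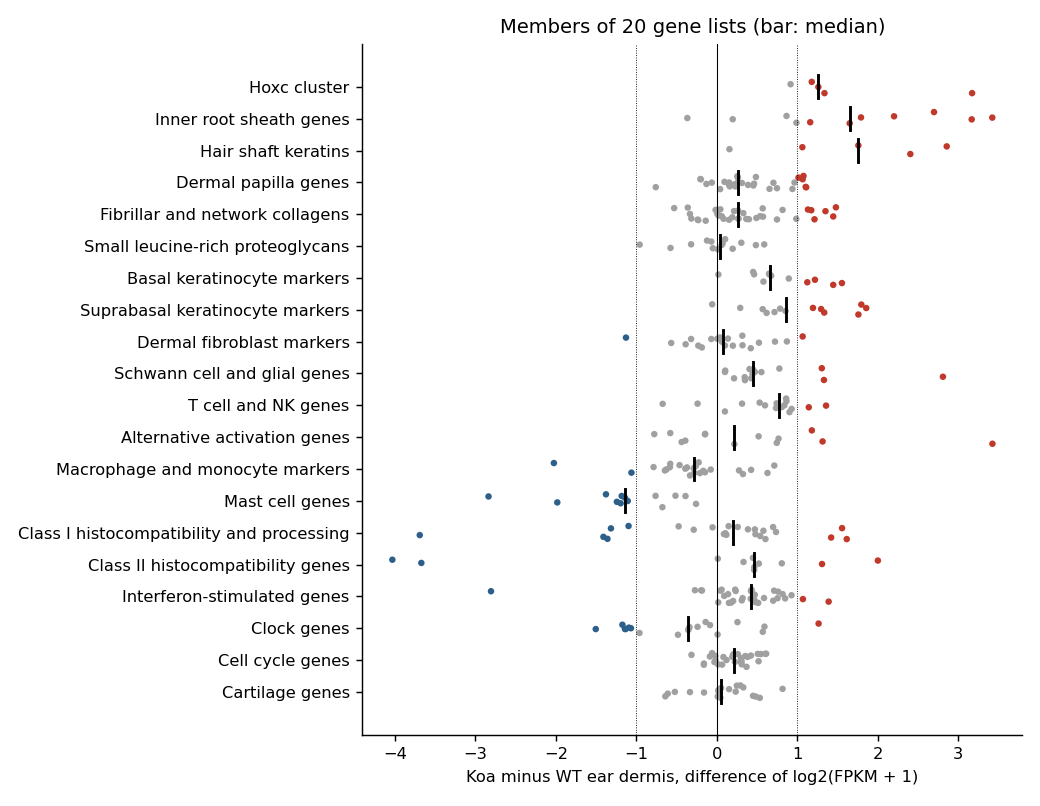
Koa minus WT difference of log2(FPKM + 1) in ear dermis for members of 20 gene lists at 1 FPKM or more; each point is 1 gene, spread vertically for visibility, the black bar is the list median and the dotted lines mark the size rule, with red points higher and blue points lower. The Hoxc (1.26), inner root sheath (1.65) and hair shaft (1.76) medians lie furthest right and the mast cell median (-1.14) furthest left. Every Hoxc and hair shaft member shown, and each inner root sheath member past the rule, reached 1 FPKM in Koa only. A positive difference of these members thus follows from the filter.

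Products of mast cells were lower in Koa ear dermis. Of 22 listed genes 13 reached 1 FPKM, all 13 lay below 0, and 8 were lower by the rule, against 0.578% of all genes, with a median of -1.14. The tryptase gene Tpsab1 (chr17:25343245-25345562) stood at 5.01 FPKM in Koa against 42.0 FPKM in WT, a WT to Koa ratio of 8.37 (7.43 to 9.46). The chymase gene Cma1 stood at 30.7 against 124 FPKM, Mcpt4 at 53.3 against 140.1 FPKM, Cpa3 at 36.5 against 87.7 FPKM and Tpsb2 at 22.1 against 51.8 FPKM. Non-protease members past the rule were the histamine-forming enzyme gene Hdc (1.82 against 5.08 FPKM), the IgE receptor chain Ms4a2 (2.68 against 7.36 FPKM) and the lineage factor Gata2 (3.69 against 9.34 FPKM). Members short of the rule were the IgE receptor chain Fcer1a (1.68 against 3.27 FPKM), Mrgprb1 (0.918 against 2.25 FPKM), Il1rl1, Kit (9.402 and 12.6 FPKM) and Hpgds (9.51 and 11.6 FPKM). The proteases are close paralogs between which fragments can be divided. In WT dorsal dermis Cma1 stood at 14.3 FPKM and Tpsab1 at 0.188 FPKM, below both ear libraries.

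Few macrophage markers passed the rule, and most lay below 0. Of 24 markers 19 lay below 0, with a median of -0.28. By the rule 2 were lower and none higher, against 0.578% and 1.34% of all genes. Trem2, a lipid receptor of macrophages, stood at 5.09 against 23.8 FPKM, with a WT to Koa ratio of 4.67 (4.33 to 5.04), and the lysosomal marker Cd68 at 59.5 against 125 FPKM. Csf1r, the receptor on which these cells depend, stood at 85.7 and 149 FPKM, short of the rule. Genes of alternative activation went the other way in part, with 3 of 13 higher. Retnla, which encodes a protein secreted by alternatively activated macrophages (chr16:48842609-48844461), stood at 26.3 FPKM in Koa against 1.53 FPKM in WT, a ratio of 17.1 (11.1 to 27.8). It stood at 143 FPKM in WT dorsal dermis. The lectin gene Cd209f (39.8 against 15.4 FPKM) and the chemokine gene Ccl22 (8.48 against 3.18 FPKM) were the others, while Mrc1 (80.1 and 105 FPKM) and Arg1 (1.26 and 2.87 FPKM) were lower without passing.

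Most T cell and NK genes lay above 0, few of them past the rule. Of 16 T cell and NK genes 14 lay above 0, with a median of 0.78. By the rule 2 were higher and none lower, against 1.34% and 0.578% of all genes. Cd3g, a chain of the T cell receptor complex, stood at 62.1 against 23.6 FPKM, and Nkg7, a granule protein of cytotoxic cells, at 16.7 against 6.99 FPKM. The kinases Lck (6.03 against 2.86 FPKM) and Zap70 (5.32 against 2.38 FPKM) were short of the rule. Cd4 was the furthest below 0, at 7.12 against 12.0 FPKM. The 14 Langerhans and dendritic cell markers held none past the rule, with Cd207 (langerin) at 17.5 and 8.55 FPKM. B cell genes (2 at 1 FPKM) and neutrophil genes (5, all below 0, median -0.66) held none past the rule.

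Histocompatibility genes were split in direction within both classes. Of 11 class II genes 2 were higher and 2 lower, against 1.34% and 0.578% of all genes. H2-Ea-ps and H2-Eb1, the genes of the 2 chains of the E molecule (the first annotated as a pseudogene) and neighbours on chromosome 17, stood at 24.7 against 420 FPKM and 12.5 against 171 FPKM. The genes of the A molecule, H2-Aa (908 and 632 FPKM) and H2-Ab1 (599.7 and 434 FPKM), and the invariant chain Cd74 (1677 and 1215 FPKM) were within the rule. H2-DMb2 (24 against 5.24 FPKM), a chain of H2-DM, which assists peptide loading, and H2-Ob (2.75 against 0.512 FPKM) were higher. WT dorsal dermis held H2-Eb1 at 167 FPKM and H2-Ea-ps at 371 FPKM, near the WT ear and far above the Koa ear.

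Class I genes and their processing machinery had 24 members at 1 FPKM. Of these, 3 were higher and 5 lower, against 1.34% and 0.578% of all genes. H2-D1, a classical class I gene, stood at 494 against 167 FPKM, with a ratio of 2.96 (2.89 to 3.02), while the other classical gene, H2-K1, stood at 76.8 and 107 FPKM. H2-T9 stood at 0.00562 against 12.0 FPKM, H2-T22 at 2.00 against 6.70 FPKM and H2-Q10 at 0.819 against 3.83 FPKM. The shared light chain B2m, on another chromosome, stood at 520 and 489 FPKM, and the transporter gene Tap1 stood at 12.0 and 8.91 FPKM. In all, 29 genes named H2- reached 1 FPKM, 6 higher and 7 lower. Ear epidermis held H2-T9 at 0.0000828 FPKM in Koa against 7.999 FPKM in WT, and H2-D1 at 308 and 113 FPKM. These genes are near-identical copies of each other and vary between strains, so fragments can be divided among them and their single values are uncertain.

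Interferon-stimulated genes, chemokines and cytokines held few genes past the rule, by which 1.34% of all genes were higher and 0.578% lower. Of 34 interferon-stimulated genes 2 were higher (Ifi205 and Iigp1) and 1 lower, Ifi202b, at 12.5 against 93.7 FPKM, and 30 of the 34 lay above 0 around a median of 0.42. Ifi205 and Ifi202b belong to 1 family of close copies. Of 26 chemokine ligands 3 were higher, Ccl8 (307 against 144 FPKM), Xcl1 (12.7 against 4.98 FPKM) and Ccl22. The 3 lower ones were Ccl3 (0.576 against 6.42 FPKM), Ccl2 (10.4 against 25.6 FPKM) and Ccl25 (1.49 against 4.51 FPKM). Ccl2 and Ccl3 attract monocytes. Of 18 cytokine genes the alarmin Il33 (12.3 against 4.45 FPKM) and the interleukin-1 antagonist Il1rn (4.01 against 1.24 FPKM) were higher. Both stood at higher levels in ear epidermis, Il33 at 68.6 and 34.9 FPKM and Il1rn at 29.95 and 14.6 FPKM. Of 18 complement genes 1 passed, the receptor gene C3ar1, at 6.68 against 19.1 FPKM.

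The circadian clock is a loop in which the activators Clock, Npas2 and Arntl switch on the Per, Cry and Nr1d repressors and output factors such as Dbp. Several repressors and outputs were lower in Koa ear dermis, and 1 activator was higher. Of 19 clock genes 6 were lower in Koa and 1 higher, against 0.578% and 1.34% of all genes, with a median of -0.35. Starts of 3 lower genes are shown because these were lower together, with motifs known from clock control in capitals. The motifs are the E-box CACGTG (Cry1 and Ciart) and the D-box TTATGTAA (Per3), searched on both strands. All 3 are from RefSeq (GRCm38.p6, minus strand): Cry1 from chr10:85185055-85185304, Ciart, which the table lists under its older symbol Gm129, from chr3:95882229-95882478, and Per3 from chr4:151044666-151044915.
Cry1: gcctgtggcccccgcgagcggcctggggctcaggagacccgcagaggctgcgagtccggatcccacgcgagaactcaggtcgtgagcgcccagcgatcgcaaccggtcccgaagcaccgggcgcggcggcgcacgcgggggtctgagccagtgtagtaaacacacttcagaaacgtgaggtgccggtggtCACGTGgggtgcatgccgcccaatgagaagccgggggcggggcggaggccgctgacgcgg
Ciart: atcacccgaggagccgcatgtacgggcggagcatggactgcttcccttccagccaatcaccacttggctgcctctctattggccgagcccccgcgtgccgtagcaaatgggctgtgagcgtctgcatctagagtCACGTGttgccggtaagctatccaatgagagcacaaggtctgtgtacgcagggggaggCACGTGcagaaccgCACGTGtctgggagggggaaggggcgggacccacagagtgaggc
Per3: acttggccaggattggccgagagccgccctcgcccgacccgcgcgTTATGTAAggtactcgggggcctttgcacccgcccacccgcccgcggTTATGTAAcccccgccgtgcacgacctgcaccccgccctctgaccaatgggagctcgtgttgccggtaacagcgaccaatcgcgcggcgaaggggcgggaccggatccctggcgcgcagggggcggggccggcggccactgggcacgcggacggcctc
Cry1 holds 1 E-box, Ciart holds 3, and Per3 holds 2 D-boxes and no E-box. The E-box occurs in 6.05% of all promoters of this length and in 8.29% of those of the genes compared, and the D-box in 0.862% and 0.481%. Per1 and Tef, which were within the size rule, hold an E-box too. Of the 55 lower genes with a promoter in the table, 5 (9.09%) held an E-box, near the share over the genes compared, and 5 a D-box, the latter being Alb, Chi3l1 (listed as Chil1), Cox7b, Ifi202b and Per3.

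Among the repressors, Per2 stood at 3.20 against 8.26 FPKM, Per3 at 5.27 against 12.8 FPKM, Cry1 at 11.1 against 24.3 FPKM and Bhlhe41 at 9.28 against 22.2 FPKM. Gm129 (Ciart) stood at 2.10 against 7.79 FPKM, with a WT to Koa ratio of 3.71 (3.05 to 4.55), the widest of the list. The output factor Dbp stood at 10.6 against 23.7 FPKM and its relative Tef at 28.01 against 55.5 FPKM, short of the rule at -0.96. On the activator side Npas2 was higher at 8.86 against 3.10 FPKM, and Arntl (34.3 and 22.8 FPKM) and Clock (21.1 and 17.5 FPKM) lay above 0. Nfil3, a repressor that binds D-boxes, lay above 0 at 11.9 and 7.54 FPKM, short of the rule. Per1 stood at 12.6 and 13.4 FPKM. Ear epidermis gave the same order, with Per2 at 1.65 FPKM in Koa against 5.42 FPKM in WT, Dbp at 11.6 and 22.1 FPKM, and Npas2 at 6.61 and 2.88 FPKM. WT dorsal dermis held Per2 at 0.658 FPKM and Dbp at 2.73 FPKM, below both ear libraries. The hour of collection is not in the labels, and it cannot be told apart from genotype here.

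**Figure D5:**
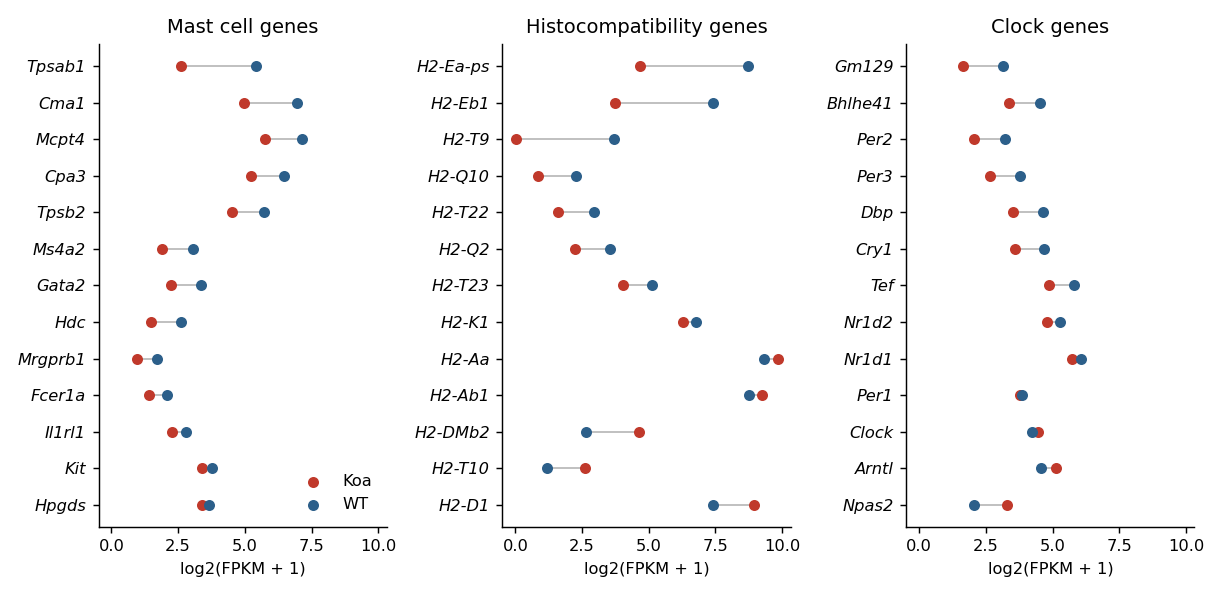
Levels of 13 mast cell genes, 13 histocompatibility genes and 13 clock genes in Koa (red) and WT (blue) ear dermis, as log2(FPKM + 1), 1 library each, with a line joining the genotypes. Every mast cell gene lies lower in Koa, the histocompatibility genes go both ways, and among the clock genes plotted Per2, Per3, Cry1 and Dbp lie lower and Arntl, Clock and Npas2 higher in Koa.

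Beyond these groups, the genes furthest apart with at least 5 FPKM in either library included several of no list. Slc26a7, an anion exchanger gene (chr4:14502430-14621946), stood at 30.2 FPKM in Koa against 1.71 FPKM in WT, a ratio of 17.7 (15.7 to 19.9), and at 14.7 FPKM in WT dorsal dermis. Mt4, a metallothionein of stratified epithelium, stood at 33.1 against 6.46 FPKM, and at 198 and 256 FPKM in ear epidermis. Wfdc2, a secreted protease inhibitor gene, was lower at 8.92 against 40.3 FPKM. The lower genes also included Gp49a, a receptor gene of mast cells and macrophages with a close copy, at 9.78 against 43.5 FPKM, and Dynlt1b, a dynein light chain gene with near-identical copies, at 1.04 against 6.99 FPKM.

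A small set of genes set both Koa ear libraries apart from all 4 WT libraries of ear and back. In ear epidermis by itself, 189 of 11852 genes were higher in Koa (1.59%) and 60 lower (0.506%). In dermis and epidermis together, 7 genes (0.0519%) stood in both Koa libraries at least 1 log2 unit above every WT library, and 6 (0.0445%) at least 1 below. Cwc22, a splicing factor gene (chr2:77881159-77946356), stood at 108 and 165 FPKM in Koa dermis and epidermis, and between 11.2 and 17.5 FPKM in the 4 WT libraries. Slc15a2, a peptide transporter gene, stood at 7.49 and 10.2 FPKM in Koa and at most 1.48 FPKM in WT. The pseudogene Pisd-ps1 stood at 4.996 and 4.70 FPKM in Koa and at most 0.0252 FPKM in WT. The zinc finger gene Zfp949 (21.95 against 4.70 FPKM in ear dermis), 3110082I17Rik, Krtap7-1 and Krtap8-1 complete the higher set. In the lower set, Gm10136 stood at 3.09 and 2.28 FPKM in Koa and between 48.8 and 255 FPKM in WT. Hyi, the hydroxypyruvate isomerase gene, stood at 8.90 and 4.505 FPKM in Koa and between 20.8 and 33.0 FPKM in WT, and Gm9199, H2-T9, H2-T22 and H2-Q10 were the others. Pisd-ps1, Gm10136 and Gm9199 are copies of other genes, so their values are uncertain. The H2- genes are near-identical copies that vary between strains, with the same limit. For none of these genes can animal and genotype be told apart, with 1 library per group.

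Lists of other cell types and processes held no gene past the rule. These were vascular endothelium (16 genes, median 0.21), lymphatic endothelium (6, -0.14), pericytes (10, 0.01), adipocytes (11, -0.01), melanocytes (12, 0.24), sebaceous gland (12, median 0.00), dermal sheath and smooth muscle (11, 0.37), heat shock chaperones (16, 0.07), early response genes (24, 0.23), chromatin architecture genes (29, 0.07) and steroid genes (13, -0.17). The melanocyte gene Dct stood at 84.4 and 50.7 FPKM and the smooth muscle gene Myh11 at 31.8 and 19 FPKM. The 30 cell cycle genes had a median of 0.22, with Bub1b, a spindle checkpoint gene, at 3.41 and 1.88 FPKM. Of 40 nuclear-encoded subunits of the respiratory chain 33 lay below 0 around a median of -0.14, and 1 passed, Cox7b, at 60.9 against 137 FPKM. All 5 red blood cell genes lay below 0 and none passed, with a median of -0.47.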

How the data were processed

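RNA-seq values were taken from 1 deposited table of FPKM computed by the authors, with 1 column per library. The tools TopHat2 2.0.13 and Cufflinks 2.2.1 are named, per the submitters' processing notes, as are the builds GRCm38 and mm9, without a role. The gene annotation is not given in the sources used here. The misspelled column of Koa ear dermis was matched to its sample by title. Positions come from RefSeq (GRCm38), to which 22290 of 22552 symbols matched.

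Genes at 1 FPKM or more in either library were compared on log2(FPKM + 1), with pseudocount 1. Genes that differed by at least 1 were counted as higher or lower, with no test because each genotype had 1 library. Short RNAs are annotated small RNAs or genes with transcripts under 300 bases. Depth was fitted to whole-fragment steps of low FPKM values with a length offset of 210 bases. Of 446 and 443 values in Koa and WT ear dermis, 78.0% and 77.7% lay within 0.1 of a whole number. Ratio intervals are exact conditional binomial intervals at 95% and treat recovered fragments as counts, which the deposited estimates need not be. The size rule and the depth steps were also run on simulated counts with known folds, counting error only and the length offset supplied. That simulation did not cover the fit of the offset, the ratio intervals or variation between animals. Python 3.11.15, pandas 2.3.3, NumPy 2.4.6, SciPy 1.17.1 and matplotlib 3.10.9 were used.

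The members and gene lists were chosen with earlier results of these data known. Named genes are every Hoxc gene, the 15 furthest apart in each direction at 5 FPKM or more, up to 4 members of each of 62 lists in each direction, defining markers and neighbours of the Hoxc cluster and Trps1. Genes named beyond these were chosen after their values were seen. They are further list members (such as Krt27, Krt28, Krt32, Tgm3, Sox10, Gata2, Hdc, Cry1, Dbp, Per1, H2-K1 and B2m), the keratin, Krtap, Cd209, Klra, Tlr and serpin families, the chromosome 15 genes, genes at the edges of the rules, and genes set apart in both layers. A few genes within these rules are not reported here. Alternatives were other pseudocounts, filters, scalings and size rules, leaving out short RNAs, and subtraction of an epidermal share.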

Additional observations from a re-analysis of the deposited data

Results flagged for a closer look

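In 7 genes the Koa ear differed from the WT ear past the size rule in one direction in dermis and in the other direction in epidermis. These differences between layers were not tested, since each group had 1 library. Spon2, which encodes a secreted matrix protein of the spondin family, differed by 1.58 in dermis and -1.28 in epidermis, and Defb2, a defensin gene, by 1.24 and -1.07, the former from a WT level listed at 0 and about 4.56 fragments in Koa. The other way, the differences in dermis and epidermis were -1.50 and 1.40 for Btg3, an antiproliferative gene, -1.02 and 1.06 for Chi3l1, which encodes a chitinase-like protein, and -1.09 and 1.12 for Kbtbd10, a muscle kelch gene. They were -1.12 and 1.40 for the zinc finger gene Zfp457, and -1.03 and 1.26 for Gm7609, both with close copies in the genome.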

How the results depend on the processing

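The counts of genes past the size rule depend on the pseudocount, the size rule and the treatment of short RNAs. As reported, 234 genes were higher and 146 lower, and 4 Hoxc, 7 inner root sheath, 8 mast cell and 69 other listed genes passed. At a pseudocount of 0.1 the counts were 436 higher, 245 lower and 107 other listed genes. At a pseudocount of 5 they were 99 higher, 86 lower, 1 Hoxc, 4 inner root sheath, 5 mast cell and 30 other listed genes. With at least 5 FPKM required, 1 Hoxc and 4 inner root sheath genes passed. Without short RNAs 78 genes were lower. At a size rule of 1.5 the counts were 94 higher, 80 lower, 1 Hoxc, 2 mast cell and 17 other listed genes. Subtraction of the epidermal share gave 197 higher and 181 lower, and the remaining counts of these groups stayed within 1.5 times. None of the 91 named genes past the rule reversed its direction under the subtraction where it stayed above the filter. The other alternatives could not reverse a difference of that size, so they are no check on direction. Scaling to equal sums or to equal medians moved the median of all genes to -0.0030 and 0.02. No paired analysis was possible because each group had 1 library. With 1 library per genotype, animal, library preparation and genotype cannot be told apart, and values under about 0.1 FPKM rest on few fragments.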

Other observations

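Outside the lists, further immune genes passed the size rule in ear dermis, by which 1.34% of all genes were higher and 0.578% lower. They were chosen after their values were seen. Gzmc, a granzyme gene, stood at 6.39 against 1.47 FPKM, and the receptor gene Klra5 at 3.29 against 0.0579 FPKM, while its relative Klra15 was near 0 in Koa and at 1.13 FPKM in WT. Of 7 Cd209 lectin genes, 3 were higher, with Cd209e at 27.4 against 9.31 FPKM and Cd209g at 12.8 against 5.21 FPKM. The toll-like receptor genes Tlr7 (6.06 against 15.4 FPKM) and Tlr13 (1.78 against 5.90 FPKM) were the 2 of 11 that passed, both lower. Klra and Cd209 genes are families of close copies.

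Serpins of clade B, protease inhibitors of which some are made by keratinocytes, were higher in 5 of 12 genes, against 1.34% of all genes. Serpinb2 stood at 22.1 against 7.30 FPKM in ear dermis and at 199.96 and 185 FPKM in ear epidermis. Krt20, a keratin of Merkel cells and their touch domes, stood at 9.90 against 2.36 FPKM in ear dermis and at no more than 0.043 FPKM in ear epidermis.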
